A study of Mus musculus with 6 samples.

Results

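The genes described here encode proteins of the synaptic vesicle cycle and adhesion molecules that join the 2 sides of a synapse. The 33 genes were chosen by function but with earlier results of these data known, so no test was made of the list. A gene entered through the rows of the array table that carry its symbol and no other. Of the 33, 32 were measured, through 34 probe sets, out of 19920 genes in all; Vamp2 was represented only by a probe set shared with Ubr3 and is given apart. The tissue was cervical cord from mouse embryos of day 11.5, freed of its dorsal part and of the floor plate, and was run on 6 whole-transcript arrays. The labels give the genotype Nkx2.9 knockout for 3 arrays and wild type for the other 3, and letter each set A to C. Nkx2-9 is a homeobox gene of the most ventral progenitors of the cord, and the study looked for genes acting downstream of it in spinal accessory motor neurons. The labels give neither strain nor sex, nor how the Nkx2.9 allele was made, nor whether an array held 1 embryo or a pool, so p-values measure only the spread between these samples, which may be technical.

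Each value below is a log2 expression value less the median of its probe set across the 6 arrays. A value of 0 is therefore the middle of the 6 arrays for that gene, levels cannot be compared between genes, and signal over background cannot be seen, so the labelled tissue could not be checked by whether its defining markers were present. Because the median of 6 values lies midway between the third and the fourth, those middle values are equal in size and opposite in sign. Identical values were found in 0 of the 15 array pairs, and the median of all probe sets on an array lay between -0.007 and 0.009. Nkx2-9 itself was not lower in the arrays labelled knockout, at -0.07, 0.26 and 0.11 in A, B and C, against -0.21, 0.07 and -0.11 in those labelled wild type (adjusted p = 0.812 in limma). Whether its probes lie in the deleted part was not known, so those arrays are called KO-labelled throughout and every direction rests on the labels. Xist, the RNA of the inactive X chromosome, stood at 0.11, 4.56 and 4.91 in KO-labelled A, B and C, against -0.25, -0.24 and -0.11 in the wild-type arrays in the same order.

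A synaptic vesicle is filled with transmitter, docked at the active zone, fused with the membrane when calcium enters, and retrieved. SNARE proteins on vesicle and membrane zip together to drive fusion, synaptotagmins sense calcium, synapsins and Rab3 proteins hold and direct vesicles, large scaffold proteins organise the release site, and dynamin and its partners recover the membrane. Neurexins on the axon bind neuroligins on the receiving cell. Neurons switch on many of these genes soon after they leave the cell cycle, before most synapses form, and their RNA is used as a sign of how far neurons have matured. In tissue as a whole, fewer neurons and less of the RNA per neuron cannot be told apart.

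Promoter sequence was examined because the genes varied together across arrays. RefSeq windows on GRCm38.p6, from 250 bases before to 50 bases after each annotated start, were found for 26 of the 33 genes, 35 windows in all. They were searched on both strands for TNAAGTG, the core bound by homeodomain factors of the NK2 class to which Nkx2-9 belongs, for CAGCACC and GGACAGC, the left and right parts of the element bound by REST (a repressor of neuronal genes outside neurons), and for TGACGTCA, the cyclic AMP response element. None of these letter strings contains another. TNAAGTG was present in 3 of the 35 windows (8.57%; Nrxn3, Syp and Syt11), against 11.5% of all 32851 windows. CAGCACC was present in 4 (11.4%; Nlgn1, Sv2c, Syn1 and Unc13a), against 7.14% of all windows. GGACAGC was found in 1 window (2.86%), that of Unc13a, against 6.56%, and TGACGTCA in 1 (2.86%), that of Syn1, against 1.79%. The windows of these genes held a median of 17 CG dinucleotides, against 7 over all windows. A match is a string of letters and not a shown binding site. The windows of 3 genes are printed 5′ to 3′ with every match in capitals: Syn1, with 2 matches to the left part of the REST element, 0 to its right part and 1 to the cyclic AMP response element, Syp, with a match to the NK2 core, and Rab3c, a gene whose groups did not overlap and whose window held 0 matches.

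Syn1 (chrX:20920869-20921168, - strand): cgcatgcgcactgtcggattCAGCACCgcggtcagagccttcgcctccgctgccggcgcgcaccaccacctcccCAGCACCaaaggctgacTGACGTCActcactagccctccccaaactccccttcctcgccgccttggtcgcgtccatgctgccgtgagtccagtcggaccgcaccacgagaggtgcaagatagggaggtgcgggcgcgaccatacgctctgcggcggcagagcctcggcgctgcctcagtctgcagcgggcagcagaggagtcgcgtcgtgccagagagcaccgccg

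Syp (chrX:7638330-7638629, + strand): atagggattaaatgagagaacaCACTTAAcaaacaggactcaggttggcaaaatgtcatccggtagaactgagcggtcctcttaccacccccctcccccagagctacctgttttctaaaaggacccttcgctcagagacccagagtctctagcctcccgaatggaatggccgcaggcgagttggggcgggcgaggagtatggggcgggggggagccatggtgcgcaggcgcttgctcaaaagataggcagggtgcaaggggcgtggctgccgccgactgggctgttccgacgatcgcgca

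Rab3c (chr13:110280157-110280456, - strand): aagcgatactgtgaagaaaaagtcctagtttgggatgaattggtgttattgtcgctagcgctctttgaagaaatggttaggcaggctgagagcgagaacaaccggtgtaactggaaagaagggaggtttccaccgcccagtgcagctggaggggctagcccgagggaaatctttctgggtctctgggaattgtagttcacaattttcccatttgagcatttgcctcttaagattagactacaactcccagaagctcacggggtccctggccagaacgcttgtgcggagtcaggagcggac

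As a group, the synaptic genes were lower in the KO-labelled arrays. The difference, KO-labelled minus wild type, was below 0 for 29 of the 32 genes (90.6%), where 45% of all 28815 probe sets were below 0, and its median was -0.20 on the log2 scale, where the median over all probe sets was 0.009. The exceptions were Cplx2, Syngr1 and Sncb. None of the 32 had an adjusted p under 0.05 in limma, nor did any probe set of the table (0%), and the adjusted p of the genes lay between 0.812 and 0.991. At an unadjusted p under 0.05 there were 6, all lower in the KO-labelled arrays: Syt1, Syn1, Rab3a, Rab3c, Nlgn1 and Nlgn3. That is 18.8% of the 32, where 5.57% of all probe sets reached this p in either direction and 2.5% did so with a lower value. The KO-labelled arrays lay wholly below the wild-type arrays in 4 genes, Snap25, Syn1, Rab3a and Rab3c (12.5% of the 32; 4.25% of all complete probe sets).

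The genes varied together from array to array, and the arrays of a group were not alike. The median over the 32 genes was -0.12, 0.05 and -0.25 in KO-labelled A, B and C, against -0.01, 0.19 and 0.00 in wild-type arrays A, B and C, which gives -0.11 ± 0.15 for the KO-labelled and 0.06 ± 0.11 for the wild-type arrays (mean ± SD of array medians, n = 3 each). The groups overlapped in these medians, because KO-labelled B stood above wild-type A and C. KO-labelled C held the lowest value in 25 of the 32 genes, where it held the lowest in 18.5% of all complete probe sets. It held the highest value in 27.1% of them, the largest such share of any array, so it was often extreme outside these genes too. In the repeat fit with array weights, KO-labelled C had the lowest weight, 0.6, where the others lay between 0.97 and 1.35. The median difference of the 32 genes was -0.16 in that fit. Wild-type B held the highest value in 21 genes, where it did so in 18% of all probe sets. KO-labelled A and C both lay below all 3 wild-type arrays in 21 genes (12.5% of all probe sets), while KO-labelled B lay above both wild-type A and wild-type C in 20 and below wild-type B in 21. For these counts of KO-labelled B the share over all probe sets was not worked out, so they only describe the 32 genes. The span between the highest and the lowest array had a median of 0.57 over the 32 genes, against 0.23 over all complete probe sets, and ran from 0.08 for Sncb to 1.83 for Sv2c.

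**Figure D1:**
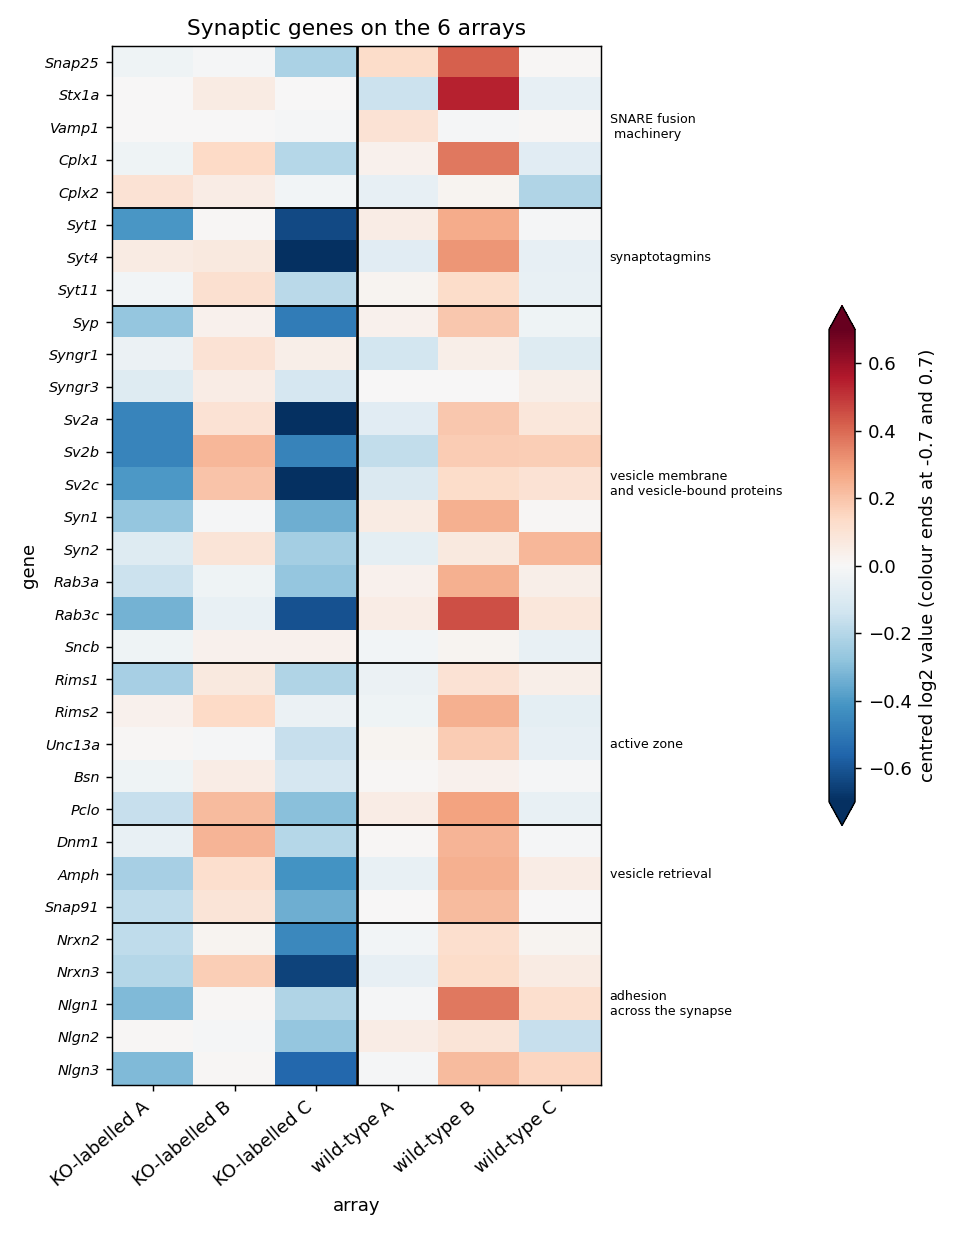
Centred log2 values of the 32 measured genes (rows, by role) on the 3 KO-labelled and 3 wild-type arrays (columns); blue is below and red above the gene's median over the 6 arrays, and colours end at -0.7 and 0.7. Most rows are bluest in KO-labelled C, which is lowest in 25 genes, and reddest in wild-type B, which is highest in 21, while KO-labelled B is pale to red.

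In the SNARE fusion machinery, 4 of 5 measured genes were lower in the KO-labelled arrays, 0 of them at an unadjusted p under 0.05, with a median difference of -0.09. Snap25, the membrane SNARE that contributes a pair of helices to the fusion complex, stood at -0.03, -0.01 and -0.22 in KO-labelled A, B and C, against 0.13, 0.42 and 0.01 in wild-type arrays A, B and C. The groups did not overlap, though KO-labelled B and wild-type C lay side by side around 0. The difference was -0.27 (SE 0.12, 1.21-fold lower; adjusted p = 0.812 in limma, unadjusted p = 0.0528). Stx1a, the syntaxin partner of Snap25, reached 0.54 in wild-type B while the other arrays lay from -0.15 to 0.06, so that its difference of -0.09 (SE 0.17) turned to 0.12 without wild-type B. The complexins clamp and promote fusion. Cplx1 was at -0.14 (SE 0.14), with its highest value, 0.37, in wild-type B. Cplx2 went the other way at 0.13 (SE 0.07), with -0.21 in wild-type C as its lowest value. Vamp1, a vesicle SNARE, differed by -0.03 (SE 0.04) and spanned only 0.10 over the 6 arrays. The probe set shared by Vamp2, the other vesicle SNARE of the list, and Ubr3 stood at -0.07, 0.09 and -0.26 in KO-labelled A, B and C, against -0.06, 0.14 and 0.06 in wild-type arrays A, B and C, and cannot be assigned to either gene.

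All 3 synaptotagmins were lower in the KO-labelled arrays, with a median difference of -0.33. Syt1, the fast calcium sensor of vesicle fusion, stood at -0.41, 0.01 and -0.63 in KO-labelled A, B and C, against 0.05, 0.26 and -0.01 in wild-type arrays A, B and C. KO-labelled A and C were well below every wild-type array and KO-labelled B was between wild-type C and A. Its difference of -0.44 (SE 0.17, 1.36-fold lower) had an unadjusted p of 0.0366 and an adjusted p of 0.812 in limma. Syt4, a synaptotagmin of neurons and secretory cells, had 0.06, 0.07 and -0.96 in KO-labelled A, B and C, against -0.08, 0.31 and -0.06 in wild-type arrays A, B and C. Only KO-labelled C was low: the difference of -0.33 (SE 0.29) became 0.0095 without that array. Syt11, which does not bind calcium, was at -0.07 (SE 0.09) and turned to 0.01 without KO-labelled C.

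Of the 11 vesicle membrane and vesicle-bound proteins 9 were lower in the KO-labelled arrays, 3 of them at an unadjusted p under 0.05, and the median difference was -0.30. Rab3c, a small GTPase of the Rab3 group that directs vesicles to the release site, stood at -0.33, -0.05 and -0.61 in KO-labelled A, B and C, against 0.05, 0.45 and 0.08 in wild-type arrays A, B and C. Its groups did not overlap, and the difference was -0.52 (SE 0.17, 1.44-fold lower; unadjusted p = 0.0188, adjusted p = 0.812 in limma). It was the gene with the lowest p of the 32 and stayed between -0.38 and -0.66 with any array left out. Rab3a, the main neuronal Rab3, had -0.15, -0.03 and -0.27 in KO-labelled A, B and C, against 0.03, 0.25 and 0.04 in wild-type arrays A, B and C. The order of the arrays was the same kind as in Rab3c, with KO-labelled C lowest and wild-type B highest, and the difference was -0.26 (SE 0.09, unadjusted p = 0.0254).

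Syn1, a synapsin, which tethers vesicles to one another and to actin, had -0.27, -0.01 and -0.34 in KO-labelled A, B and C, against 0.06, 0.25 and 0.01 in wild-type arrays A, B and C. These groups were also apart, by a narrow gap between KO-labelled B and wild-type C, and differed by -0.31 (SE 0.11, unadjusted p = 0.0241). Syn2, its paralogue, was at -0.16 (SE 0.11), and at -0.08 without KO-labelled C as well as without wild-type C. Syp, synaptophysin, a marker protein of the vesicle membrane, had -0.27, 0.03 and -0.49 in KO-labelled A, B and C, against 0.03, 0.19 and -0.03 in wild-type arrays A, B and C. KO-labelled B lay above wild-type A and C, so the groups overlapped, and the difference was -0.31 (SE 0.14, unadjusted p = 0.0621).

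The SV2 glycoproteins are transporter-like proteins of the vesicle membrane. Among the 32 genes, Sv2c and Sv2a had the most negative differences, and both were nearest to 0 without KO-labelled C. Sv2a had -0.46, 0.10 and -1.07 in KO-labelled A, B and C, against -0.08, 0.19 and 0.08 in wild-type arrays A, B and C. Sv2c had -0.40, 0.20 and -1.63 in KO-labelled A, B and C, against -0.10, 0.13 and 0.10 in wild-type arrays A, B and C. For both, KO-labelled A and C were below all wild-type arrays while KO-labelled B was among or above them. The differences were -0.54 (SE 0.28) for Sv2a and -0.65 (SE 0.43) for Sv2c, with unadjusted p of 0.0959 and 0.178 in limma. Without KO-labelled C they were -0.24 and -0.14, and without KO-labelled B -0.83 and -1.06. Sv2b was at -0.30 (SE 0.21), its 2 low values being -0.46 in KO-labelled A and -0.47 in KO-labelled C. It moved to -0.18 without either of these arrays and to -0.53 without KO-labelled B. In the remaining 3 genes of this group the differences were small: -0.07 (SE 0.06) for Syngr3 and 0.10 (SE 0.06) for Syngr1, both synaptogyrins, and 0.03 (SE 0.04) for Sncb, beta-synuclein.

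At the active zone all 5 genes were below 0 in difference and none had an unadjusted p under 0.05, with a median of -0.10. Rims1, a scaffold that ties Rab3 to the release site, had -0.23, 0.07 and -0.21 in KO-labelled A, B and C, against -0.04, 0.10 and 0.04 in wild-type arrays A, B and C. KO-labelled A and C were again the low arrays, and the difference was -0.16 (SE 0.09, unadjusted p = 0.13). Its paralogue Rims2 was at -0.01 (SE 0.10). The giant scaffold genes Pclo and Bsn were at -0.17 (SE 0.15) and -0.04 (SE 0.05). Unc13a, which primes vesicles for fusion, had 3 probe sets that disagreed in size and in array order. The one with the most annotated transcripts was at -0.10 (SE 0.08), another at -0.25 (SE 0.07, unadjusted p = 0.0127 in limma) and the third at -0.01 (SE 0.10). KO-labelled C was the lowest array in the first, at -0.16. In the third it was the highest, at 0.14, and KO-labelled A was lowest, at -0.25.

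The 3 genes of vesicle retrieval were all lower, with a median difference of -0.22 and none at an unadjusted p under 0.05. Snap91, which recruits clathrin to vesicle membrane, had -0.18, 0.09 and -0.34 in KO-labelled A, B and C, against 0.00, 0.22 and 0.00 in wild-type arrays A, B and C. The groups overlapped through KO-labelled B, and the difference was -0.22 (SE 0.12). Amph, amphiphysin, which brings dynamin to the neck of a budding vesicle, was at -0.26 (SE 0.15). Dnm1, the neuronal dynamin that cuts the vesicle free, was at -0.08 (SE 0.12), with 0.24 in both KO-labelled B and wild-type B.

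All 5 adhesion genes were lower in the KO-labelled arrays, 2 of them at an unadjusted p under 0.05, with a median difference of -0.27. Nlgn3, a neuroligin of excitatory and inhibitory synapses, had -0.31, 0.01 and -0.55 in KO-labelled A, B and C, against -0.01, 0.22 and 0.15 in wild-type arrays A, B and C. Nlgn1, the neuroligin of excitatory synapses, had -0.31, 0.01 and -0.21 in KO-labelled A, B and C, against -0.01, 0.37 and 0.12 in wild-type arrays A, B and C. In both, KO-labelled B lay just above wild-type A and below the other wild-type arrays. The differences were -0.40 (SE 0.14, unadjusted p = 0.0295) for Nlgn3 and -0.33 (SE 0.12, unadjusted p = 0.0309) for Nlgn1, each with an adjusted p of 0.812 in limma. Nlgn2, the neuroligin of inhibitory synapses, was at -0.08 (SE 0.10) and turned to 0.01 without KO-labelled C. The neurexin genes Nrxn2 and Nrxn3 were at -0.25 (SE 0.12) and -0.27 (SE 0.20), the second becoming -0.06 without KO-labelled C.

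**Figure D2:**
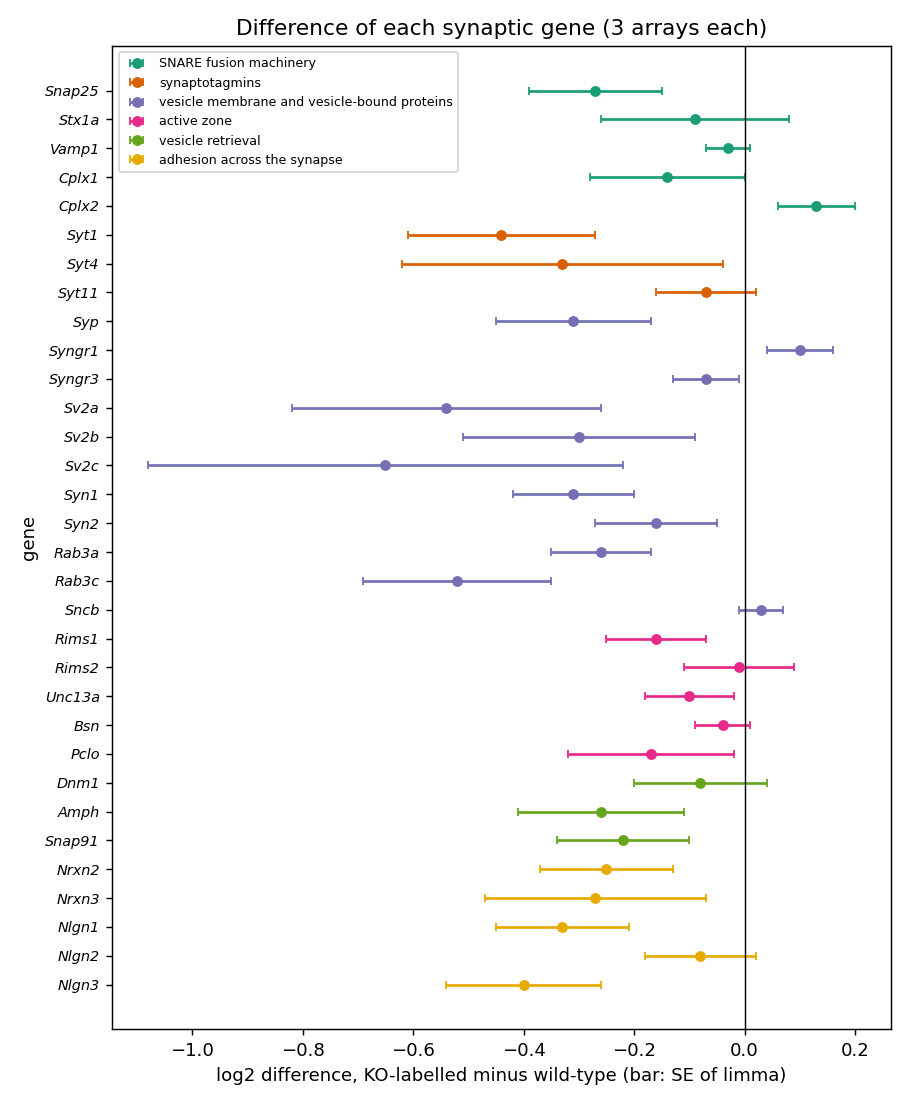
Log2 difference, KO-labelled minus wild type, of each measured gene (points, coloured by role), with bars of 1 SE from limma, 3 arrays a group. Points of 29 genes lie left of 0, with Sv2c at -0.65 farthest and with the widest bar, and Cplx2 at 0.13 farthest right.

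Paralogues with like functions can be set side by side as differences, although no test of one against the other was made. The pairs were -0.52 for Rab3c and -0.26 for Rab3a, -0.31 for Syn1 and -0.16 for Syn2, -0.16 for Rims1 and -0.01 for Rims2, -0.14 for Cplx1 and 0.13 for Cplx2, and -0.07 for Syngr3 and 0.10 for Syngr1. Some of these rested on single arrays: Cplx1 was at 0.00 and Rims2 at 0.09 without wild-type B, and Cplx2 was at 0.06 without wild-type C. Syn1, Syp and Nlgn3 lie on the X chromosome, and embryo sex, as read from Xist, differed among the KO-labelled arrays. Xist was low in every wild-type array, so sex also differed between the groups and cannot be fully told apart from the labels, for any of the genes. Syn1 was at -0.27 in KO-labelled A, where Xist was low, and at -0.01 and -0.34 in B and C, where it was high, and Syp and Nlgn3 showed the same order.

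The size of the difference depended on single arrays, while its direction held for the median. With each array left out in turn the median difference of the 32 genes was -0.17 without KO-labelled A, -0.32 without KO-labelled B, -0.08 without KO-labelled C, and, with a wild-type array left out, -0.24 for A, -0.15 for B and -0.24 for C. Without KO-labelled B, 16 genes reached an unadjusted p under 0.05 with a lower value (5.18% of all probe sets); none passed the adjusted threshold, and the lowest adjusted p of the 32 was 0.348. The 16 included Syp, Sv2a, Sv2b, Sv2c, Rims1, Pclo, Amph, Snap91, Nrxn2 and Nrxn3 besides the 6 genes named above. Only Rab3c did so without KO-labelled A (2.02% of all probe sets) and without KO-labelled C (1.89%). Leaving out wild-type A gave 5 (2.08%), wild-type C 4 (3.01%) and wild-type B 0 (1.46%), and in the last of these Cplx2 reached it with a higher value. Without KO-labelled C 23 of the 32 genes were still below 0, and Syt4, Syt11, Rims2, Bsn, Dnm1 and Nlgn2 had turned above it. Syp was at -0.18, Snap91 and Nrxn2 at -0.12 and Amph at -0.13 without that array, Snap25 at -0.16 without wild-type B, and Rims1 at -0.10 without KO-labelled A.

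**Figure D3:**
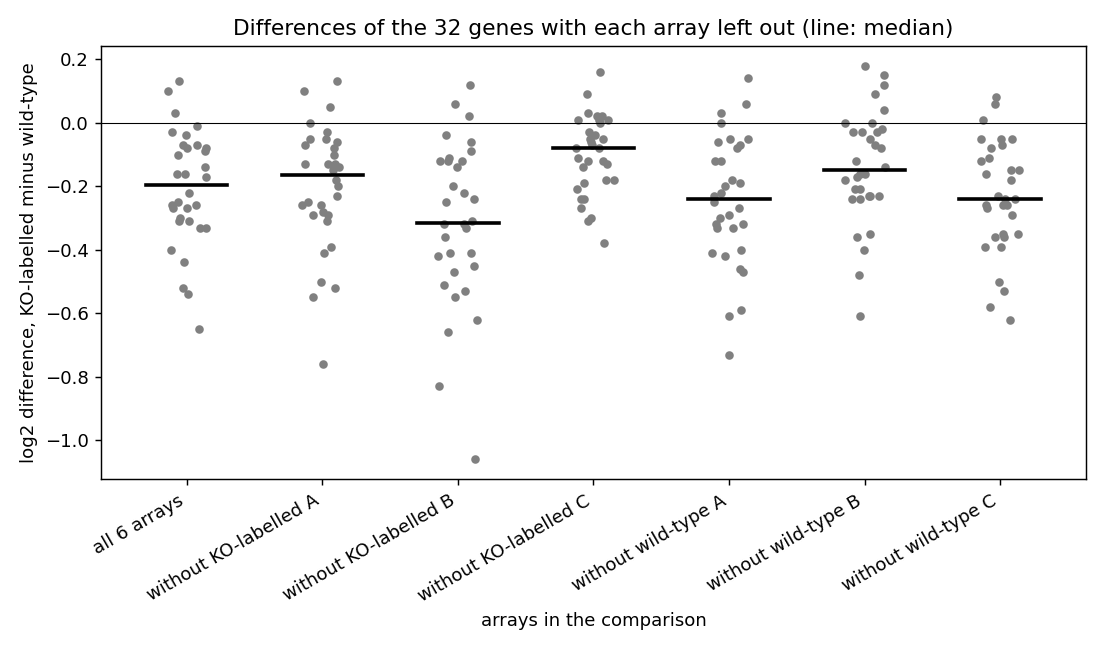
Log2 differences, KO-labelled minus wild type, of the 32 genes (points) with all 6 arrays and with each array left out; the bar is their median. The median is -0.32 without KO-labelled B and -0.08 without KO-labelled C, the lowest and the highest of the 7 medians.

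Other genes of the synapse, 100 measured of 107 listed, showed a smaller difference in the same direction. Their median was -0.08, 70 were below 0 (70%), and 7 had an unadjusted p under 0.05 with a lower value and 1 with a higher one, where 2.5% of all probe sets did so with a lower value. None passed over all probe sets. Adhesion molecules had the most negative median, -0.21 with 17 of 20 below 0, followed by active zone genes at -0.11 with 14 of 16. Retrieval genes had a median of -0.06 (6 of 9 below 0), vesicle membrane genes -0.06 (13 of 19), synaptotagmins -0.01 (7 of 10), postsynaptic scaffold genes 0.00 (7 of 13) and SNARE genes 0.02 (6 of 13). Slitrk2 and Slitrk1, adhesion proteins that organise synapses, were at -0.75 (SE 0.22) and -0.59 (SE 0.21). Slitrk2 had -0.81, -0.12 and -0.15 in KO-labelled A, B and C, against 0.41, 0.63 and 0.12 in wild-type arrays A, B and C; KO-labelled A rather than C was its lowest array. Syt5, a synaptotagmin, was at -0.36 (SE 0.10), the secretory carrier gene Scamp1 at -0.32 (SE 0.09), and Sh3gl2, an endophilin that bends vesicle membrane, at -0.34 (SE 0.11). The postsynaptic scaffold genes Shank1 and Dlgap1 were at -0.28 (SE 0.08) and -0.18 (SE 0.06), and Cadps, which primes secretory vesicles, at -0.26 (SE 0.13). Higher were Slc18a2, the vesicular monoamine transporter, at 0.36 (SE 0.12), and Vamp3, a SNARE found in most cells, at 0.26 (SE 0.12).

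Lists of marker genes for other cell states and types were read on the same arrays. Like the synaptic genes, the newborn neuron list was lowest in KO-labelled C and highest in wild-type B, while the cell cycle list was the reverse. KO-labelled A stood next to KO-labelled C in each of these lists. Only wild-type A, wild-type C and KO-labelled B changed places between them, and their synaptic medians lay close together, at -0.01, 0.00 and 0.05. The part of either list in the result was not tested. The 24 newborn neuron genes had medians of -0.07, 0.02 and -0.28 in KO-labelled A, B and C, against 0.03, 0.16 and -0.02 in wild-type arrays A, B and C, with 22 of 24 below 0 in difference, including Mapt, which encodes tau, at -0.39 (SE 0.15) and the RNA-binding protein gene Elavl3 at -0.13 (SE 0.04). The 19 cell cycle genes had 0.18, -0.10 and 0.27 in KO-labelled A, B and C, against -0.09, -0.59 and 0.06 in wild-type arrays A, B and C. Their lowest array, wild-type B, was thus the array where most synaptic genes were highest, and their highest, KO-labelled C, the array where most were lowest. Their median difference was 0.33, with 19 of 19 above 0, and it was 0.13 without wild-type B. The 16 neural progenitor genes had 0.02, 0.01 and -0.10 in KO-labelled A, B and C, against 0.00, -0.04 and 0.01 in wild-type arrays A, B and C; their median difference was 0.01, with 8 below and 8 above 0. Prom1 and Notch1, of lowest p among them, were at 0.36 (SE 0.13) and 0.34 (SE 0.13), and both at 0.21 without wild-type B. Mesenchyme genes (13) had a median of 0.66 and blood vessel genes (10) one of 0.60 in KO-labelled C, against -0.11 to 0.14 on the other 5 arrays. With all arrays the median difference was 0.49 for mesenchyme genes, 13 of 13 above 0, and 0.25 for vessel genes, 8 of 10 above 0. Without KO-labelled C these medians were -0.04 and -0.06, while that of the synaptic genes was -0.08.

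The medians of the posterior Hox genes, which mark position towards the tail, were -0.32, -0.05 and -0.10 in KO-labelled A, B and C, against 0.04, 0.26 and 0.10 in wild-type arrays A, B and C (17 genes, 14 below 0 in difference). Their lowest array was KO-labelled A and their groups did not overlap, unlike those of the synaptic genes. The median difference was -0.30, more negative than the -0.20 of the synaptic genes. At an unadjusted p under 0.05, 7 of the 17 were lower (41.2%), where 2.5% of all probe sets were. Hoxb9 and Hoxa6, of lowest p among them, were at -0.99 (SE 0.12) and -0.92 (SE 0.16). The unadjusted p of Hoxb9, 0.000121 in limma, was the smallest of all probe sets (adjusted p = 0.812). The 11 anterior Hox genes had a median difference of 0.04. Differences of the 12 motor neuron genes were mixed, from -0.75 to 0.20, with 7 below and 5 above 0. Isl2 and Prph, of lowest p among them, were at 0.18 (SE 0.07) and -0.40 (SE 0.18). The wild-type medians of that list were 0.06, 0.24 and -0.22 in A, B and C. Other neuron classes had median differences near 0: -0.02 for 12 motor neuron genes and -0.02 for 9 dorsal root ganglion neuron genes. So had 6 neural crest and Schwann cell precursor genes (0.00), 9 muscle genes (-0.01) and 10 macrophage genes (-0.02), while the 6 red blood cell genes were at 0.30, with array medians of 0.19, -0.08 and 0.08 in KO-labelled A, B and C, against -0.45, -0.75 and 0.39 in wild-type arrays A, B and C. Leaving out wild-type B brought the red blood cell median to 0.03, and leaving out wild-type C brought it to 0.68. Genes of the REST repressor complex had a median difference of 0.08 over 10 genes, with 6 above 0. Among them Rcor1, a corepressor of REST, was at 0.21, 0.06 and 0.39 in KO-labelled A, B and C, against -0.12, -0.06 and -0.10 in wild-type arrays A, B and C, a difference of 0.31 (SE 0.09, unadjusted p = 0.00958, adjusted p = 0.812 in limma). Ehmt2, a histone methyltransferase, was at -0.13 (SE 0.04).

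**Figure D4:**
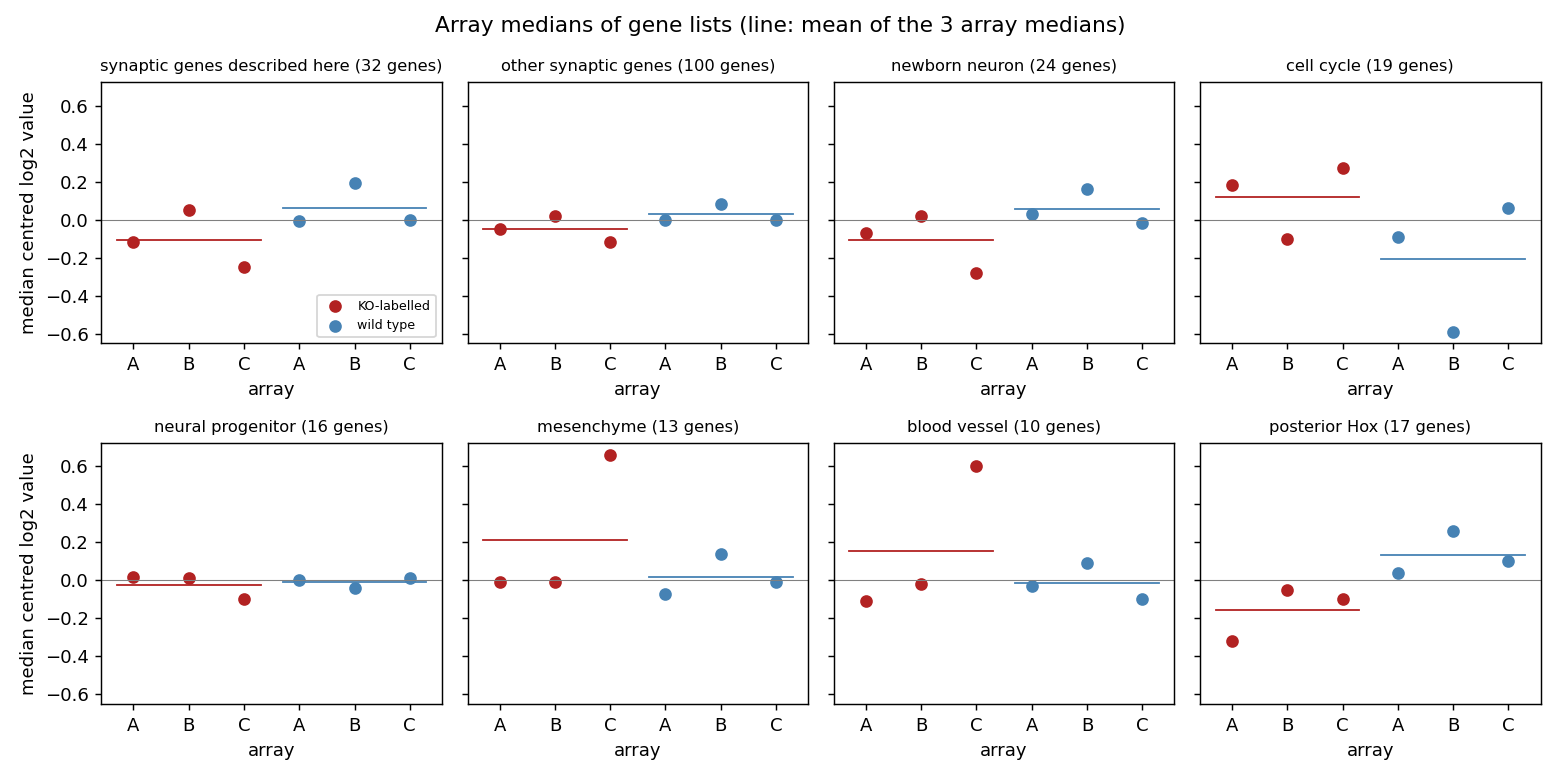
Median centred log2 value of 8 gene lists on each array (points; A to C of the KO-labelled arrays in red, of the wild type in blue), with lines at the mean of a group's 3 array medians. The 32 synaptic genes and the newborn neuron genes are lowest in KO-labelled C and highest in wild-type B, the cell cycle genes the reverse, and mesenchyme and blood vessel genes stand at 0.66 and 0.60 in KO-labelled C.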

How the data were processed

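RNA from 6 cervical spinal cord samples was isolated with a column kit, amplified, labelled with biotin and hybridised to whole-transcript arrays, per the labels' protocols. The authors used RMA for the deposited log2 values, per the submitters' processing notes; its version and settings and the genome build are not given in the sources used here, and the log base was taken as 2. In all 28791 complete probe sets the median over the 6 arrays was 0 within 1e-06, so each had been centred. This removes levels but leaves differences between arrays and their p-values as they were. A further 24 probe sets were missing on wild-type C and entered the fit with 5 arrays; none of them was a gene described here.

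Symbols came from the platform annotation. A gene with several complete probe sets was read from the one with the most accessions, ties going to the lowest identifier. The difference, KO-labelled minus wild type, was fitted over all 28815 probe sets with limma 3.58.1 in R 4.3.3. The fit held 1 term, the genotype, with Benjamini-Hochberg adjustment and a threshold of 0.05. Simulated arrays were also fitted, with the spread taken from this fit and each probe set drawn independently. The genes described here varied together, which such arrays do not copy, so no result rests on them. Counts at an unadjusted p under 0.05 are descriptions. Tables and figures used pandas 2.3.3 and matplotlib 3.10.9 in Python 3.11.15. The genes and lists were chosen with earlier results of these data known, so no list was tested; a few genes stand in 2 lists. Array values are given for genes with an unadjusted p under 0.05 or a difference of at least 0.3 in size, and for the gene of lowest p in each role; other genes are given by difference. From the other synaptic genes up to 4 a role with an unadjusted p under 0.05, or else the one of lowest p, were named, and from other lists up to 2 of lowest p. The fit was repeated with a replicate block for the letter, with median-centred arrays, quantile normalization, array weights or a robust variance prior, with Xist (high on 2 arrays) as a covariate, with a gene's probe sets averaged, and without each array in turn. The number of arrays limits the precision.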

Additional observations from a re-analysis of the deposited data

How the results depend on the processing

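The median difference of the 32 genes kept its sign under all 13 alternatives, between -0.32 without KO-labelled B and -0.08 without KO-labelled C, and the number of genes below 0 lay between 23 and 29. Not all of these could have turned a direction. The replicate block and the robust variance prior leave each gene's difference as it was, and averaging probe sets changed only that of Unc13a. No gene of the 32 passed the adjusted threshold of limma under any alternative. Of all probe sets, 0 passed with all arrays and between 0 and 5 with an array left out, the 5 without KO-labelled A. The number of the 32 genes at an unadjusted p under 0.05, 6 in the main comparison, lay between 1 and 16 with an array left out. It was 12 with the replicate block, where 8.86% of all probe sets reached that p, and 1 (Nlgn1) with the term for the arrays with high Xist, where 5.95% did; that term reads the difference from KO-labelled A against the wild type, a lone array assumed to vary like the others. The letters were not taken to pair the samples: deviations from the group means correlated at 0.165 for A, 0.216 for B and 0.0159 for C over all complete probe sets, and KO-labelled C did not correlate best with its own letter. Syt4 turned to 0.0037 with the Xist term and lay between -0.51 and 0.0095 with an array left out; the cause was not tested. Nlgn2 turned to 0.02 and Sncb to -0.01 with the Xist term, and Rims2 to 0.01 with quantile normalization. With an array left out, Syt11, Bsn, Dnm1 and Nlgn2 turned above 0 without KO-labelled C, Stx1a without wild-type B, and Rims2 without either. Snap25, Syt1, Syp, Sv2a, Sv2c, Syn1, Rab3a, Rab3c, Rims1, Snap91, Nlgn1 and Nlgn3 kept their direction under all 13 alternatives. So did Sv2b, Syn2, Syngr3, Unc13a, Pclo, Amph, Nrxn2 and Nrxn3, all lower, and Cplx2 and Syngr1, both higher. Cplx1 came to 0.00 without wild-type B and Vamp1 without wild-type A. A brightness filter could not be applied, as the centred values hold no level.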
